A study of Mus musculus with 11 samples.

Results

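Transcripts of the proteins of the cytosolic ribosome were followed in sorted mouse microglia. Members were the protein-coding rows whose symbol is Rpl or Rps with a number and at most 1 further letter, together with Rplp0, Rplp1, Rplp2 and Rpsa. The rule gave 80 genes of 55401 rows, 49 of the large and 31 of the small subunit, of which 79 passed the filter on low counts, among 20390 genes that did. Rpl10l was the exception, with 2 counts in all.

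The study varied Inpp5d dose in mice with and without Tyrobp. Inpp5d encodes SHIP1, an inositol lipid phosphatase, and Tyrobp encodes DAP12, an adaptor of the receptor TREM2. It holds 3 Tyrobp-/-;Inpp5d+/-;NLGF libraries, called the compound mutant here, 2 Tyrobp-/-;NLGF, 3 Inpp5d+/-;NLGF and 3 NLGF libraries. Every group, NLGF included, came from the amyloid line NLGF, which has mutations knocked into App, and so no group lacked amyloid. The strain was C57BL/6, and the age was 9 to 10 months. The labels name no driver that would restrict either deletion to microglia. The cells were live CD11b+/CD45+ brain cells, a gate that microglia share with other myeloid cells.

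The cytosolic ribosome is built from 1 copy of nearly every member, and its mRNAs are among the most abundant of a cell. Many of these mRNAs begin at a cytosine followed by a run of pyrimidines, the 5′ terminal oligopyrimidine (TOP) tract. Through this tract the kinase complex mTORC1 and the RNA-binding protein LARP1 set their translation and stability. Several large subunit proteins also bind Mdm2 when ribosome assembly is disturbed, which links them to p53.

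Libraries held between 29490567 and 66637052 counts, over 20203 to 22662 genes. Values are CPM, counts relative to library size after TMM scaling unless another unit is named. Tyrobp had 3.22 to 8.94 CPM in the 5 Tyrobp-/- libraries, against 1952 to 2560 CPM in the 6 others. Inpp5d had 189.8 to 279.8 CPM in the 6 Inpp5d+/- libraries, against 204.8 to 449.2 CPM in the 5 others, so that the groups overlapped. The 7 microglia markers summed to 37160 to 38410 CPM in Tyrobp-/- libraries, against 32630 to 37890 CPM in the others. The 12 neutrophil markers summed to 256.1, 9861 and 2274 CPM in compound mutant replicates 1 to 3 and to 19100 and 4400 CPM in Tyrobp-/-;NLGF replicates 1 and 2, against 131.3, 54.71 and 184.0 CPM in Inpp5d+/-;NLGF and 0.737, 231.7 and 86.85 CPM in NLGF. In the additive model below, 11 of these 12 were higher in Tyrobp-/-, as were 3 of 10 monocyte markers. All 5 Tyrobp-/- libraries had higher neutrophil marker sums than the 6 others, although compound mutant replicate 1 (256.1 CPM) was close to NLGF replicate 2 (231.7 CPM). The design therefore does not separate a result on Tyrobp below from these markers. Their part in it was tested only by the covariate and the omission of libraries, where these are given beside it. The numbers in the sample titles of Tyrobp-/- and other libraries fall in separate ranges, so whatever these numbers record cannot be told apart from Tyrobp. The labels do not say what they stand for.

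Start regions are shown first because the TOP tract lies there. RefSeq annotation of GRCm38.p6 held promoter entries for 60 of the 80 members, with 72 starts. Each line gives 15 bases before and 15 bases from an annotated start, with the longest run of C and T in capitals. The first 7 are the members that fell in Tyrobp-/- libraries in the additive model and have an entry, and Rpl21, Rps29, Rpl23a and Rpl3 are named only.
Rpl23, chr11:97782425-97782454, minus strand: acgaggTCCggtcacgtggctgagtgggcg
Rps2, chr17:24720048-24720077, plus strand: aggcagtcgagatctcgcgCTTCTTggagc
Rpl4, chr9:64173372-64173401, plus strand: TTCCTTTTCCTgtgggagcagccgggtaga
Rps26, chr10:128626492-128626521, minus strand: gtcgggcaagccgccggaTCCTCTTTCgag
Rpl36a, chrX:134585639-134585668, plus strand: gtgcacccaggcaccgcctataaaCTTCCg
Rpl5, chr5:107900513-107900542, plus strand: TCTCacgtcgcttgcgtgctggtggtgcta
Rps28, chr17:33824548-33824577, minus strand: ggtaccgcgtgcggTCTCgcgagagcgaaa

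Members that did not pass the test and carry a tract across the annotated start are shown beside them for comparison. Of such members, those with the smallest p in the additive model were taken. They were chosen for the tract, so its presence in them is not a result.
Rpl28, chr7:4792950-4792979, plus strand: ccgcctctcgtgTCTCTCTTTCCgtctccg
Rpl38, chr11:114668565-114668594, plus strand: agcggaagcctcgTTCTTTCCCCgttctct
Rpl35, chr2:39005117-39005146, minus strand: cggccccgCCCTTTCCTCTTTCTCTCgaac
Rpl15, chr14:18270972-18271001, minus strand: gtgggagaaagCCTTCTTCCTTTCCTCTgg

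In these windows the median longest pyrimidine run was 6 bases over member starts and 4 bases over all 32851 annotated starts. A start at C followed by 4 pyrimidines was annotated at 13 of 72 member starts (18.1%), against 2.51% of all starts. It was annotated at 0 of the 7 starts of members that fell. Rps2 and Rps26 have pyrimidine runs of 6 and 9 bases just after the annotated start. Rpl4 has a run before the start, with 11 bases inside the window and more beyond its edge. The count of tracts therefore depends on where the annotation places the start.

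A search of the 300 bases around each start, on both strands, used 3 motifs, none of which contains another. CCGGAAG, of the type ETS factors bind, was in 26 of 72 member promoters (36.1%), against 8.86% of all promoters. CTTTCC was in 36 of the 72, against 26.6% of all. The E-box CACGTG was in 8 (11.1%), against 7.15% of all. Among the 7 promoters of members that fell, CCGGAAG was in 2, CTTTCC in 4 and CACGTG in 1. The 150 bases before the Rpl23 and Rpl4 starts hold CCGGAAG on neither strand. Those before the Rps2 start hold it on the opposite strand, shown in capitals as CTTCCGG.
Rps2, chr17:24719913-24720062, plus strand: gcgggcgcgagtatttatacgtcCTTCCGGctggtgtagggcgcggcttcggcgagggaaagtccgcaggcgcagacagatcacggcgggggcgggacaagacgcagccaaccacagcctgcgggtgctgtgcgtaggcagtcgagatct

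The share of ribosomal protein transcripts ran from 2.02% to 2.83% over the libraries, and the genotypes overlapped. The 80 members summed to 2.34%, 2.02% and 2.33% of all counts in compound mutant libraries and to 2.12% and 2.25% in Tyrobp-/-;NLGF. They summed to 2.30%, 2.62% and 2.35% in Inpp5d+/-;NLGF and to 2.21%, 2.83% and 2.47% in NLGF. The mean was 2.23% ± 0.178 (SD, n = 3) in the compound mutant and 2.19% ± 0.094 (n = 2) in Tyrobp-/-;NLGF, against 2.42% ± 0.17 (n = 3) in Inpp5d+/-;NLGF and 2.50% ± 0.313 (n = 3) in NLGF. NLGF replicate 2 was highest, while NLGF replicate 1 lay below 2 of the 3 compound mutant libraries.

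Counts of large over small subunit members gave a ratio of 1.25 ± 0.0206 in the compound mutant, 1.27 ± 0.00636 in Tyrobp-/-;NLGF, 1.28 ± 0.0551 in Inpp5d+/-;NLGF and 1.29 ± 0.00404 in NLGF (SD). Over single libraries it ran from 1.228 to 1.338, both in Inpp5d+/-;NLGF. Rows named as pseudogenes of members added 0.0704% to 0.0973% of each library.

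**Figure D1:**
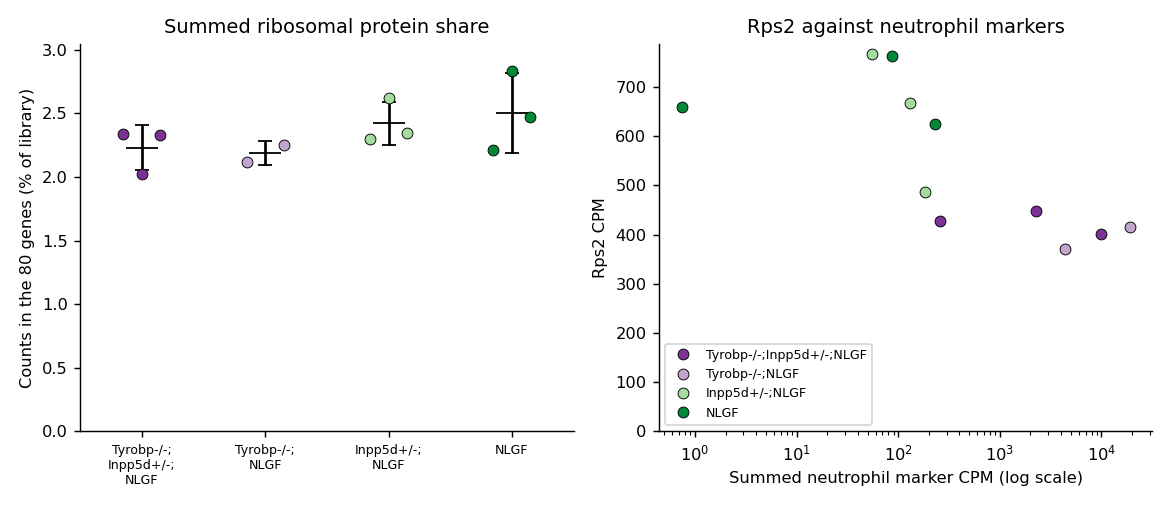
Left, counts in the 80 genes as percent of all counts of a library, by genotype, with the mean and SD. Right, Rps2 CPM against the summed CPM of 12 neutrophil markers on a log scale, 1 point per library. The shares overlap between genotypes, and the 5 Tyrobp-/- libraries have both the 5 highest marker sums and the 5 lowest Rps2 values.

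Over all 11 libraries, an additive model with a term for Tyrobp and a term for Inpp5d compared the 5 Tyrobp-/- with the 6 other libraries. Of 79 members, 11 fell and 0 rose (edgeR quasi-likelihood test, adjusted p below 0.05), where 2.91% of all genes fell and 2.45% rose. The 11 were Rpl23, Rps2, Rpl21, Rpl4, Rps26, Rpl36a, Rpl5, Rps28, Rps29, Rpl23a and Rpl3, 7 of 48 large and 4 of 31 small subunit members. The log2 fold change was below 0 in 72 of 79 members. Its median was -0.18 over the members, against 0.03 over all genes tested, and it was -0.20 in the large and -0.16 in the small subunit. At an unadjusted p below 0.05, 32 members were lower, where 9.09% of all genes were. DESeq2 called 17 members lower (5.38% of all genes) and limma-voom 11 (3.48%). These were bulk samples, so fewer cells of a type and less RNA per cell cannot be told apart.

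With a covariate for the neutrophil markers, which itself follows the Tyrobp genotype, 0 members passed by edgeR (0.235% of all genes were lower). A further fit left out 2 libraries, which kept only replicate 2 of Tyrobp-/-;NLGF and brought the genes tested to 22214. Fewer calls in it may also come from fewer libraries, which was not tested. Without the 2 libraries with most S100a8, Tyrobp-/-;NLGF replicate 1 and compound mutant replicate 2, only Rpl23 passed (0.95% of all genes were lower), while the member median was -0.15 with the covariate and -0.11 without those libraries. The count was 3 without Tyrobp-/-;NLGF replicate 1 or without compound mutant replicate 2, and 4 without Tyrobp-/-;NLGF replicate 2, Inpp5d+/-;NLGF replicate 2 or Inpp5d+/-;NLGF replicate 3. It was 5 without compound mutant replicate 1 or Inpp5d+/-;NLGF replicate 1, and 6 without NLGF replicate 2. These are the fits with the lower counts. Over all 11 fits that left out 1 library, the count ran from 3 to 12, where 1.39% to 2.47% of all genes were lower. Rpl23, Rps2 and Rpl21 passed in all 11 of the fits that left out 1 library.

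**Figure D2:**
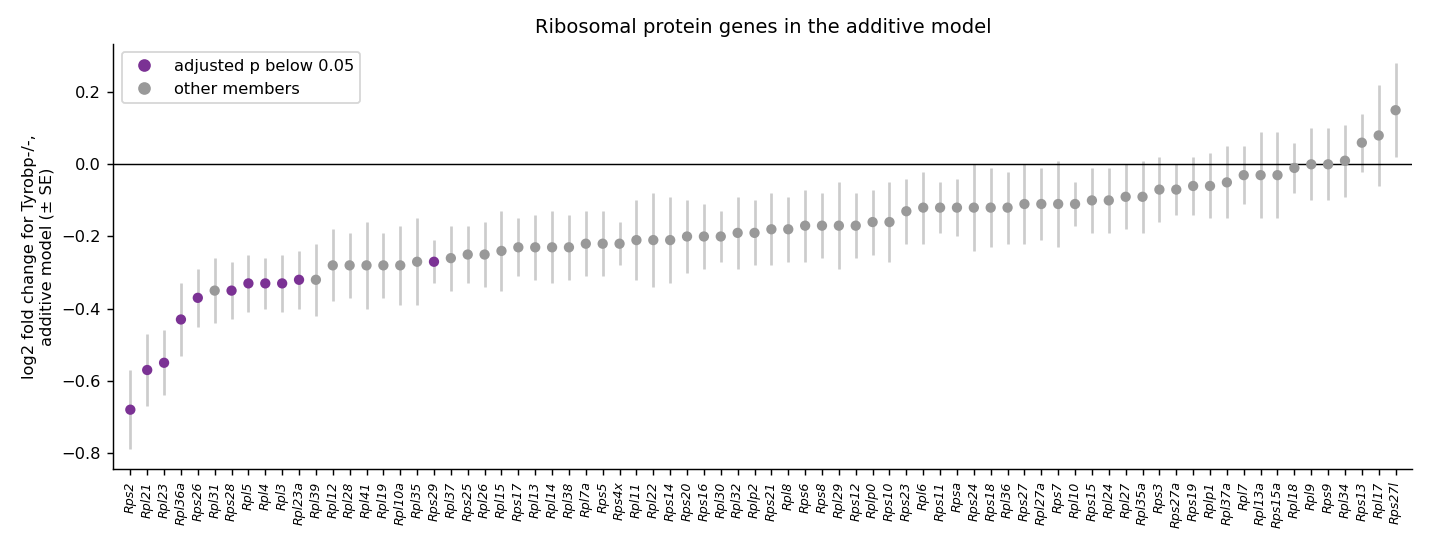
Log2 fold change for Tyrobp-/- in the additive model, with its standard error, for the members above 5 CPM that are reported here, in order of size. Rps2 (-0.68), Rpl21 (-0.57) and Rpl23 (-0.55) stand at the low end, and most members lie between these and 0.

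Rps2, a small subunit protein at the channel through which mRNA enters, had the largest fall among the 77 members above 5 CPM. It had 428.4, 401.9 and 448.8 CPM in compound mutant libraries and 415.5 and 369.6 CPM in Tyrobp-/-;NLGF. It had 667.3, 767.9 and 487.1 CPM in Inpp5d+/-;NLGF and 658.8, 625.3 and 763.9 CPM in NLGF. All 5 Tyrobp-/- libraries lay below all 6 others, although Inpp5d+/-;NLGF replicate 3, at 487.1 CPM, was close to them. The log2 fold change was -0.68 (SE 0.11, adjusted p = 0.00751), which is 0.624 of the level in the other libraries. It was -0.57 with the neutrophil covariate (adjusted p = 0.349) and -0.67 without the 2 libraries richest in S100a8 (adjusted p = 0.0762).

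Rpl23, a large subunit protein near the site where translation factors bind and one of those that bind Mdm2, had 191.4, 155.1 and 206.6 CPM in compound mutant libraries. It had 194.5 and 170.6 CPM in Tyrobp-/-;NLGF, against 253.7, 294.3 and 271.1 CPM in Inpp5d+/-;NLGF and 277.2, 267.7 and 242.1 CPM in NLGF. The genotypes did not overlap, with a gap between 206.6 and 242.1 CPM. The log2 fold change was -0.55 (SE 0.09, adjusted p = 0.00544), or 0.684 of the level in the other libraries. With the covariate it was -0.43 (adjusted p = 0.342), and without the 2 libraries it was -0.52 (adjusted p = 0.0315).

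Rpl21, a large subunit protein whose gene is mutated in a hereditary hypotrichosis of humans, had 173.1, 170.8 and 229.4 CPM in compound mutant libraries and 210.6 and 211.6 CPM in Tyrobp-/-;NLGF. It had 273.5, 292.3 and 336.4 CPM in Inpp5d+/-;NLGF and 266.3, 307.4 and 307.3 CPM in NLGF, and again no Tyrobp-/- library reached the others. The log2 fold change was -0.57 (SE 0.10, adjusted p = 0.00829), or 0.671 of the other libraries' level. It was -0.72 with the covariate (adjusted p = 0.146) and -0.54 without the 2 libraries (adjusted p = 0.0722). In the deposited table (GRCm38) Rps2 lies at chr17:24718116-24721929, Rpl23 at chr11:97777527-97782437 and Rpl21 at chr5:146832890-146837032.

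**Figure D3:**
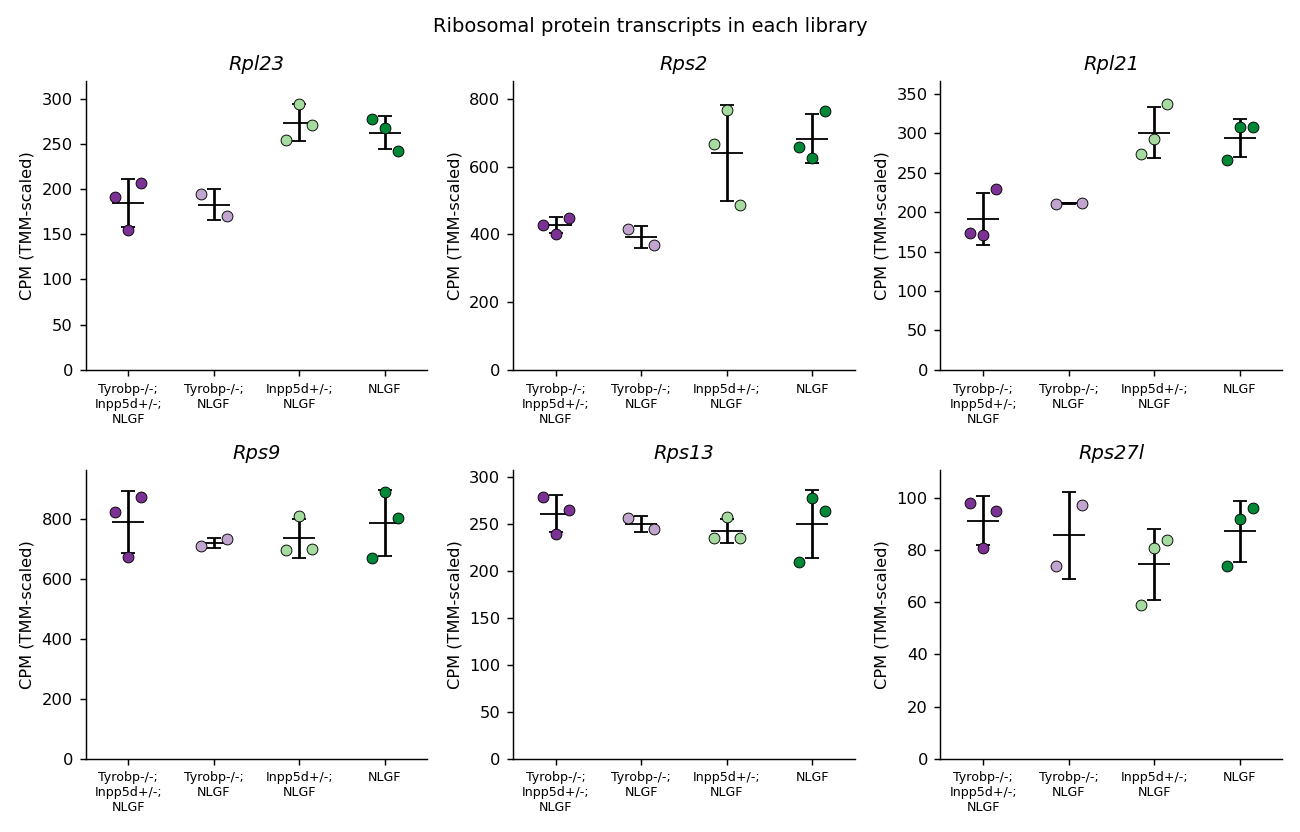
CPM of 6 members in each library by genotype, with mean and SD, on axes that start at 0. Rpl23, Rps2 and Rpl21 are lower in all 5 Tyrobp-/- libraries than in all 6 others, while Rps9, Rps13 and Rps27l overlap between genotypes.

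Around the mRNA path of the small subunit, Rps26 and Rps28 at the exit side fell, as did Rps29 of the head. Rps26 had 80.79, 70.53 and 80.3 CPM in the compound mutant and 81.09 and 81.12 CPM in Tyrobp-/-;NLGF, against 103.3, 100.4 and 103.5 CPM in Inpp5d+/-;NLGF and 97.61, 115.8 and 91.21 CPM in NLGF. The groups did not overlap (log2 fold change -0.37, SE 0.08, adjusted p = 0.0242). Rps28 had 219.3 to 249.5 CPM in Tyrobp-/- libraries, against 266.7 to 348.5 CPM in the others (-0.35, SE 0.08, adjusted p = 0.0332). Rps29, a small zinc-binding protein, had 428.8 to 514.2 CPM, against 522.8 to 603.9 CPM (-0.27, SE 0.06, adjusted p = 0.0369). Other proteins of the same region stood elsewhere. Rps9, at the entry side, had 675.5 to 872.9 CPM in Tyrobp-/- libraries, against 671.0 to 891.3 CPM in the others (0.00, SE 0.10, adjusted p = 0.998). Rps3, also at the entry side, was at -0.07 (SE 0.09, adjusted p = 0.781).

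Along the exit tunnel of the large subunit, Rpl4, which reaches into the tunnel wall, fell. It had 287.8, 284.5 and 340.7 CPM in the compound mutant and 283.3 and 328.4 CPM in Tyrobp-/-;NLGF, against 371.6, 389.9 and 399.8 CPM in Inpp5d+/-;NLGF and 362.4, 406.9 and 374.1 CPM in NLGF (-0.33, SE 0.07, adjusted p = 0.0228). No library of one Tyrobp genotype reached into the range of the other. Rpl23a, at the tunnel exit where the signal recognition particle docks, had 116.8 to 144.0 CPM in Tyrobp-/- libraries, against 144.9 to 174.8 CPM (-0.32, SE 0.08, adjusted p = 0.0393). Rpl31 and Rpl39, further proteins of the tunnel and its exit, missed the threshold at -0.35 (SE 0.09, adjusted p = 0.0599) and -0.32 (SE 0.10, adjusted p = 0.0981). Rpl17, another protein of the exit, was at 0.08 (SE 0.14, adjusted p = 0.832).

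Rpl3, which lies next to the peptidyl transferase centre, had 539.2, 459.9 and 601.7 CPM in the compound mutant and 532.0 and 520.9 CPM in Tyrobp-/-;NLGF. It had 616.7, 695.0 and 605.9 CPM in Inpp5d+/-;NLGF and 659.6, 783.2 and 675.6 CPM in NLGF (-0.33, SE 0.08, adjusted p = 0.0458). The gap between the genotypes was small, at 601.7 against 605.9 CPM. Rpl36a, which contacts the tRNA leaving the ribosome, had 67.19 to 85.23 CPM in Tyrobp-/- libraries, against 84.98 to 116.2 CPM in the others (-0.43, SE 0.10, adjusted p = 0.0311), and these ranges overlapped. Reads of Rpl36a are uncertain, since its named pseudogenes held 22.5% as many counts as the gene itself. Among other members that fell, this share was 10% for Rps26, 9.63% for Rpl23a and 5.62% for Rpl3. It was 3.91% or less for Rps2, Rpl5, Rpl21 and Rps29.

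Rpl5 and Rpl11 carry the 5S RNA into the large subunit and bind Mdm2 together. Rpl5 had 212.9 to 243.7 CPM in the 3 libraries of the compound mutant and 220.5 and 226.2 CPM in Tyrobp-/-;NLGF, against 288.9, 270.4 and 302.4 CPM in Inpp5d+/-;NLGF and 241.3, 297.6 and 308.5 CPM in NLGF. Only NLGF replicate 1 fell within the Tyrobp-/- range (-0.33, SE 0.08, adjusted p = 0.0323). Rpl11 had 112.6 to 155.9 CPM, against 134.9 to 190.6 CPM (-0.21, SE 0.11, adjusted p = 0.342). Rpl7, Rpl11, Rpl17, Rps3 and Rps9 were outside the naming rule and were named after their values had been seen. Rps16 and Rps19 were named for their distance from Tyrobp, and Rpl28, Rpl38, Rpl35 and Rpl15 for their start tracts, not by that rule.

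The stalk proteins, which recruit elongation factors, did not pass the test. Rplp0, the base of the stalk, had 922.4, 767.0 and 840.1 CPM in the compound mutant and 864.9 and 878.7 CPM in Tyrobp-/-;NLGF, against 874.3, 1044.0 and 885.4 CPM in Inpp5d+/-;NLGF and 794.0, 1147.0 and 999.6 CPM in NLGF. The ranges overlapped, and the log2 fold change was -0.16 (SE 0.09, adjusted p = 0.422). Rplp1 was at -0.06 (SE 0.09, adjusted p = 0.814) and Rplp2 at -0.19 (SE 0.09, adjusted p = 0.287). Rpsa, a small subunit protein also known as the laminin receptor, had 331.1 to 438.4 CPM in Tyrobp-/- libraries, against 383.1 to 455.6 CPM in the others (-0.12, SE 0.08, adjusted p = 0.482).

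A positive estimate was found in 7 members, none of which passed. Rps27l, a close copy of Rps27 that is a p53 target, was at 0.15 (SE 0.13, adjusted p = 0.627). It had 98.22, 80.77 and 95.0 CPM in the compound mutant and 73.76 and 97.46 CPM in Tyrobp-/-;NLGF, against 58.96, 80.63 and 83.88 CPM in Inpp5d+/-;NLGF and 73.84, 91.78 and 96.05 CPM in NLGF. Rps27 itself was at -0.11 (SE 0.11, adjusted p = 0.664). Rps13, a small subunit protein, was at 0.06 (SE 0.08, adjusted p = 0.794).

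The copies Rpl39l and Rpl3l had low and uneven counts, with 0 to 140 counts per library for Rpl39l and 0 to 68 for Rpl3l. A floor of 3 counts corresponds to 0.0477 to 0.1 CPM. Rpl39l, known from male germ cells, had 0, 0.669 and 1.09 CPM in the compound mutant and 0 and 1.02 CPM in Tyrobp-/-;NLGF, against 0, 0 and 0.0576 CPM in Inpp5d+/-;NLGF and 0.337, 1.90 and 2.23 CPM in NLGF. Rpl3l, known from heart and skeletal muscle, ran from 0 to 1.20 CPM in Tyrobp-/- libraries and from 0 to 1.08 CPM in the others. Their parents Rpl39 and Rpl3 had 154.0 to 245.6 and 459.9 to 783.2 CPM over all libraries. Each was at 0 in some libraries, so no fold change is given, and neither passed in any comparison by edgeR. Rpl10l, a copy of Rpl10, was under the floor, with 1 count in each of NLGF replicates 2 and 3.

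The libraries of both Tyrobp genotypes did not overlap for 11 members, all lower in Tyrobp-/-, where 3.47% of all genes were lower without overlap. These were the members that passed, apart from Rpl36a and Rpl5, with Rpl31 and Rps4x. Rps4x, an X-linked small subunit protein, had 310.3 to 341.4 CPM in Tyrobp-/- libraries, against 355.2 to 413.4 CPM in the others (-0.22, SE 0.06, adjusted p = 0.0618). Rpl31 had 80.45 to 104 CPM, against 107.2 to 139.5 CPM.

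Setting each member against the sum of all members in its own library takes out a shift that they share. Rps2 then made up 1.88%, 2.01% and 1.92% of member counts in the compound mutant and 1.95% and 1.68% in Tyrobp-/-;NLGF, against 2.92%, 2.90% and 2.07% in Inpp5d+/-;NLGF and 2.97%, 2.24% and 2.92% in NLGF. Rps2, Rpl21, Rpl23 and Rpl3 were lower without overlap on this scale, 4 of 80 members, and the log2 ratios of mean shares were -0.50, -0.40, -0.37 and -0.16. Rps13, Rps9 and Rpl7 were higher without overlap, at log2 ratios of 0.24, 0.18 and 0.15. On the same scale 1.39% of all genes tested were lower and 5.52% higher without overlap. The mean member sum was lower in both Tyrobp-/- groups (2.23% and 2.19% of all counts) than in the others (2.42% and 2.50%). Division by this sum raises other genes in Tyrobp-/-, so these shares are not a neutral background for the members. By CPM, 3.47% of all genes were lower and 2.7% higher without overlap. In CPM, Rps9, Rps13 and Rpl7 overlapped between genotypes.

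Without Inpp5d deletion, Tyrobp-/-;NLGF was compared with NLGF. By edgeR 0 of 79 members passed, where 0.863% of all genes did, 13 members were lower at an unadjusted p below 0.05 (5.99% of all genes), and DESeq2 called 4 lower (2.78% of all genes) and limma-voom 2 lower (0.942%). The members' median log2 fold change was -0.21, against 0.00 over all genes, and 78 of 79 were below 0. Rpl36a was at -0.62 (SE 0.13, adjusted p = 0.0731), Rps2 at -0.80 (SE 0.17, adjusted p = 0.0787) and Rpl23 at -0.52 (SE 0.14, adjusted p = 0.135). In 31 members both Tyrobp-/-;NLGF libraries lay below all 3 NLGF libraries, where 14% of all genes did.

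With 1 Inpp5d copy deleted, the compound mutant was compared with Inpp5d+/-;NLGF, which uses none of the same libraries. By edgeR 0 members passed, where 0.897% of all genes did, 17 were lower at an unadjusted p below 0.05 (6.26% of all genes), and DESeq2 called 9 lower (2.67% of all genes) and limma-voom 0 (0.657%). The median was -0.15, against 0.02 over all genes, and 64 of 79 were below 0. Rpl21 was at -0.65 (SE 0.13, adjusted p = 0.0601), Rpl23 at -0.57 (SE 0.12, adjusted p = 0.0706) and Rps2 at -0.59 (SE 0.15, adjusted p = 0.14). Rps27l was at 0.29 (SE 0.18, adjusted p = 0.494) and Rps13 at 0.10 (SE 0.12, adjusted p = 0.768). In 21 members the groups did not overlap and the compound mutant was lower, where 9.22% of all genes were.

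Across the 77 members above 5 CPM, the log2 fold changes of these comparisons had a Pearson correlation of 0.66 and a Spearman correlation of 0.58. In both comparisons 64 members were below 0. This describes genes measured in the same libraries, which are not independent replicates, and both sets of Tyrobp-/- libraries are also richer in neutrophil markers. The fold changes in the additive model bore little relation to the mean CPM (Pearson 0.06), the transcript length (0.03) or the share of pseudogene counts (-0.04) of a member.

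**Figure D4:**
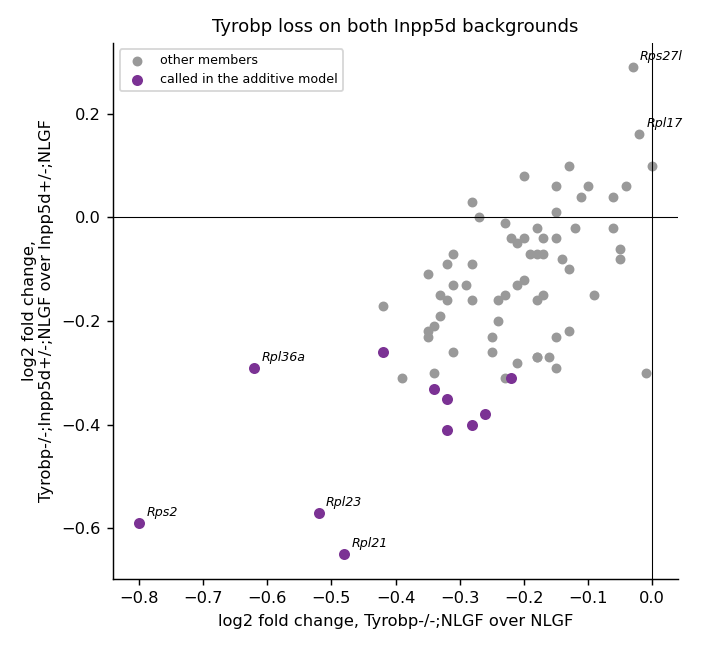
Log2 fold change of the compound mutant over Inpp5d+/-;NLGF against that of Tyrobp-/-;NLGF over NLGF, 1 point per reported member above 5 CPM. Rps2 (-0.80 across, -0.59 up), Rpl23 (-0.52, -0.57) and Rpl21 (-0.48, -0.65) lie low in both, and Rps27l is at 0.29 on the vertical axis.

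The interaction term asks whether the Tyrobp difference depends on Inpp5d. By edgeR 0 members passed, where 0% of all genes did, 0 members had an unadjusted p below 0.05, and DESeq2 and limma-voom called 0 members (0.177% and 0% of all genes). The estimate was 0.21 for Rps2 (SE 0.23), -0.04 for Rpl23 (SE 0.18), -0.18 for Rpl21 (SE 0.20), 0.33 for Rpl36a (SE 0.18), 0.28 for Rpl37a (SE 0.20), -0.29 for Rpl29 (SE 0.24) and -0.11 for Rps4x (SE 0.12), each with an adjusted p of 1. The median was 0.10, against 0.02 over all genes. The median SE over members was 0.19.

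Deletion of 1 Inpp5d copy came with no called change in any member. In Inpp5d+/-;NLGF against NLGF, edgeR, DESeq2 and limma-voom each called 0 members, where edgeR and limma-voom called 0% and DESeq2 0.142% of all genes, and 1 member, Rpl39l, was lower at an unadjusted p below 0.05 (2.66% of all genes). The median was -0.06, against 0.00 over all genes. Rpl36a and Rpl37a were at -0.22 (SE 0.12 and 0.13), and Rpl30 was at 0.14 (SE 0.09), Rps28 at 0.13 (SE 0.11) and Rps4x at 0.08 (SE 0.08), with adjusted p of 0.952 or more. Rpl30, which binds its own transcript in yeast, had 197.1, 199.3 and 185.9 CPM in Inpp5d+/-;NLGF, against 186.3, 181.3 and 160.1 CPM in NLGF, so the groups overlapped narrowly.

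In the compound mutant against Tyrobp-/-;NLGF, edgeR, DESeq2 and limma-voom again called 0 members, and 0 had an unadjusted p below 0.05, where edgeR called 0.00981%, DESeq2 0.245% and limma-voom 0% of all genes. The median was 0.03, against 0.01 over all genes. Rpl29, a large subunit protein that also binds heparin, had 62.26, 88.35 and 98.54 CPM in the compound mutant, against 106.1 and 97.84 CPM in Tyrobp-/-;NLGF (-0.30, SE 0.18, adjusted p = 1). Compound mutant replicate 1 was the lowest of all libraries for this gene. Rpl8 was at -0.16 (SE 0.14), Rpl27a at 0.21 (SE 0.15), Rps20 at 0.18 (SE 0.16) and Rpl18 at 0.12 (SE 0.10), each with an adjusted p of 1. The additive term for Inpp5d+/- likewise called 0 members by the 3 tools, where edgeR and limma-voom called 0% and DESeq2 0.0638% of all genes, and 0 members had an unadjusted p below 0.05. Its median was -0.02, and Rpl30 was at 0.11 (SE 0.07), Rps20 at 0.10 (SE 0.10), Rps28 at 0.07 (SE 0.08) and Rpl31 at -0.12 (SE 0.09).

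With both alleles changed, the compound mutant was set against NLGF. By edgeR 0 members passed, where 0.873% of all genes did, 22 were lower at an unadjusted p below 0.05 (6.52% of all genes), and DESeq2 called 7 lower (2.64% of all genes) and limma-voom 0 (0.711%). Rpl21 was at -0.62 (SE 0.13, adjusted p = 0.0745), Rps2 at -0.68 (SE 0.15, adjusted p = 0.0921) and Rpl36a at -0.50 (SE 0.12, adjusted p = 0.101). Rps13 (0.06, SE 0.12), Rps27l (0.07, SE 0.17) and Rpl18 (0.02, SE 0.09) had positive estimates. The median was -0.20, against 0.03 over all genes, and in 18 members the groups did not overlap, where 8.92% of all genes were lower without overlap. This comparison shares its libraries with those above.

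Levels per length differed widely among members. With CPM divided by the gene length of the deposited table, Rplp1 (840.2 CPM per kilobase), Rps29 (765.4), Rplp0 (548.9) and Rpl36 (529.0) were among the 5 highest. Rpl3l (0.184), Rpl39l (0.798), Rps15a (24.2), Rpl22 (31.7) and Rps24 (35.5) were lowest. The deposited length joins all annotated exons of a gene, so the order rests on the annotation. With the length of the principal GENCODE transcript in its place, an alternative added after the data were seen, Rps29 was highest at 1360 CPM per kilobase and was the only gene in the top 5 by both lengths, while 4 genes were in the bottom 5 by both. Over the 11 libraries the SD of log2(CPM + 0.1) was largest for Rpl39l (1.88), Rpl3l (1.36), Rps2 (0.39), Rpl21 (0.34) and Rpl23 (0.31), and smallest for Rpl18 (0.08).

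Members lie on 19 chromosomes, with 14 on chromosome 7, which carries Tyrobp (chr7:30413760-30417585), and 3 on chromosome 1, which carries Inpp5d. Rps16 lies nearest to Tyrobp, at a distance of 2.06 Mb, and was at -0.20 (SE 0.09, adjusted p = 0.296). Rps19, at 5.52 Mb, was at -0.06 (SE 0.08, adjusted p = 0.796). None of the 11 members that fell is on chromosome 7 or 1.

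The 8 ribosomal components or relatives outside the name rule gave a mixed picture in the additive model. Rpl7l1, a relative of Rpl7 that acts in ribosome assembly, rose. It had 155.1, 154.8 and 142.0 CPM in the compound mutant and 148.6 and 152.2 CPM in Tyrobp-/-;NLGF, against 132.6, 103.8 and 103.9 CPM in Inpp5d+/-;NLGF and 113.8, 125.2 and 124.3 CPM in NLGF (0.37, SE 0.08, adjusted p = 0.0275). All 5 Tyrobp-/- libraries lay above all 6 others, the opposite direction from the 11 members that fell. Rpl22l1, a copy of Rpl22, was at -0.37 (SE 0.13, adjusted p = 0.149). Rack1, Fau, Rps3a1, Rps27rt and Rpl36al lay between -0.12 and 0.09 and did not pass.

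Other TOP mRNAs, which encode translation factors and related proteins, fell in 6 of 16 cases, where 2.91% of all genes fell, with a median of -0.26. Eef2, the translocase of elongation, had 478.0, 484.9 and 469.7 CPM in the compound mutant and 492.5 and 440.4 CPM in Tyrobp-/-;NLGF, against 608.2, 643.7 and 651.4 CPM in Inpp5d+/-;NLGF and 651.0, 601.8 and 588.5 CPM in NLGF (-0.40, SE 0.05, adjusted p = 0.00201). The Tyrobp-/- libraries reached at most 492.5 CPM, against at least 588.5 CPM in the others. Npm1, a nucleolar chaperone of ribosome assembly, had 137.6 to 183.2 CPM in Tyrobp-/- libraries, against 236.8 to 322.4 CPM (-0.70, SE 0.10, adjusted p = 0.0037). Hnrnpa1, an RNA-binding protein, was at -0.58 (SE 0.10, adjusted p = 0.00635), and Eef1a1, Eef1b2 and Eif4b also fell.

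Lists of genes that build or control the ribosome held few genes that passed, where 2.45% of all genes rose and 2.91% fell. Of 38 ribosome biogenesis genes, 2 rose and 0 fell, with a median of 0.07. They were Nob1, the nuclease that finishes the small subunit RNA (0.72, SE 0.15, adjusted p = 0.0238), and Bysl, a small subunit assembly factor (0.51, SE 0.12, adjusted p = 0.0304). Of 10 chaperones of ribosomal proteins, Pdcd2l rose (0.68, SE 0.13, adjusted p = 0.0117), a relative of Pdcd2, which escorts Rps2. By edgeR 0 passed of 20 RNA polymerase I genes (median 0.09), 25 initiation factors (median -0.05), 22 genes of mTORC1 and TOP control (median 0.07) and 10 genes of the Myc network (median 0.09). The smallest adjusted p were 0.0833 for Eif4h, 0.0676 for Pdcd4, an inhibitor of the initiation helicase, and 0.137 for Mlx. The 78 genes of mitochondrial ribosomal proteins had a median of 0.16, with 65 above 0, and 1 rose, Mrpl43 (0.44, SE 0.10, adjusted p = 0.0375). The Tyrobp genotypes behind all of these values, in either direction, also differ in the neutrophil markers given above, and the part of these markers in the lists was not tested.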

How the data were processed

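RNA of flow-sorted cells was made into SMART-Seq v4 libraries, which keep no strand, per the labels' protocols. Reads were processed using STAR 2.7.3a and featureCounts 1.6.4 on the builds GRCm38.p6 and mm10, per the submitters' processing notes. The authors deposited whole-number read counts per gene and a gene length in bases. For the annotation release, strand setting and multi-mapping reads, nothing is given in the sources used here, so near-identical copies and overlapping genes are uncertain.

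Genes passing filterByExpr (minimum count 10, total 15) were scaled by TMM and fitted with edgeR 4.0.16 in R 4.3.3, as 1 model with 4 genotype coefficients and as an additive model. P values were adjusted by Benjamini-Hochberg within a comparison, over 20390 genes in the main fits, with a threshold of 0.05. The SE came from the F statistic. Alternatives used DESeq2 1.42.0, limma-voom (limma 3.58.1), other scalings and filters. The procedure was tested on simulated data. The members, lists and tests were chosen with earlier results of these data known. Named were members that passed, the 3 per direction with smallest p, stalk proteins, Rpsa, copies, extremes of level and spread, and up to 3 called (or the first by p) per list. Replicates are numbered by sample order. No label ties a library to an animal, and p values therefore reflect differences between libraries, which may be technical. Floors cover counting error only. The results of 2 named genes are not reported here.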

Additional observations from a re-analysis of the deposited data

How the results depend on the processing

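In the additive Tyrobp comparison, 11 members passed, all lower. With no filter on low counts 6 passed (1.47% of all genes were lower), with DESeq2 17 (5.38%), with the neutrophil covariate 0 (0.235%), and without the 2 libraries with most S100a8 1 (0.95%). Leaving out 1 library gave 3 to 12 (1.39% to 2.47% of all genes). RLE scaling gave 10, upper-quartile scaling 12, and TMM factors without the members, limma-voom and addition of pseudogene counts 11 each, with 2.82% to 3.48% of all genes lower. A filter at 1 CPM gave 13 (5.16%) and a threshold of 0.1 gave 14 (4.48%). No member that passed changed sign in any of 21 alternatives.

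In Tyrobp-/-;NLGF against NLGF, where 0 passed, a filter at 1 CPM gave 2 (1.4% of all genes were lower), DESeq2 4 (2.78%), limma-voom 2 (0.942%) and a threshold of 0.1 gave 2 (1.14%). In the compound mutant against Inpp5d+/-;NLGF, the filter gave 2 (1.52%), DESeq2 9 (2.67%) and the threshold 2 (1.2%). In the compound mutant against NLGF, the filter gave 2 (1.4%), DESeq2 7 (2.64%) and the threshold 2 (1.17%). Leaving out 1 library gave 0 to 1 in each of these, where 0.111% to 0.676% of all genes were lower. The other comparisons stayed at 0 members in every alternative run.

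The member medians moved by less than the SD of library medians within genotypes, pooled over the 4 groups (0.129), which is not small beside them. Without 1 library they ran from -0.29 to -0.14 in Tyrobp-/-;NLGF against NLGF, from -0.20 to -0.06 in the compound mutant against Inpp5d+/-;NLGF, from -0.30 to -0.12 in the compound mutant against NLGF and from -0.21 to -0.15 in the additive Tyrobp term. They ran from 0.03 to 0.19 in the interaction, from -0.17 to 0.00 in Inpp5d+/-;NLGF against NLGF, from -0.01 to 0.10 in the compound mutant against Tyrobp-/-;NLGF and from -0.07 to 0.01 in the additive Inpp5d term. Without the 2 libraries with most S100a8, the median was -0.07 in the compound mutant against Inpp5d+/-;NLGF and -0.11 against NLGF.

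Fits on only the compared groups were run for pairs of genotypes alone. No paired analysis was possible because replicate numbers follow sample order and pair nothing. Depth limits Rpl10l, which is under the floor. The covariate was chosen with the marker values known.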
